A study of Mus musculus with 10 samples.

Results

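Of 10 mouse abdominal aorta arrays, 6 read the lipogenic gene Acly above a set level and 4 read it below, and the genes that go with that sort are described here. Acly encodes ATP citrate lyase, which splits citrate in the cytosol and so supplies the acetyl-CoA that fatty acids are built from. Values were taken as log2 intensity, with intensities under 0.0278 raised to 0.0278, and an array with an Acly level over 4.5 was placed in the Acly-high class. The high class held infrarenal arrays 1 and 8 and suprarenal arrays 1, 6, 8 and 11, and the low class held infrarenal arrays 6, 11 and 12 and suprarenal array 12. The classes were thus chosen from a measured value on the same arrays. Differences between them are given as a description of what goes along with Acly, and the count of probes past a threshold ranks genes and supports nothing by itself.

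All arrays came from male ApoE-/- mice of 14 weeks, which have no apolipoprotein E, carry high blood cholesterol and form atherosclerotic plaque, and no wild-type aorta was analysed here. Each of 5 pools joined the aortas of 2 mice, and each pool was split at the kidney arteries, into the infrarenal part downstream of them and the suprarenal part upstream. Arrays carry the number of their pool, 1, 6, 8, 11 or 12, so arrays of the same number share animals. One array was read per part, in a single colour, with 36227 probes.

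White fat stores triglyceride, and brown fat burns it, using uncoupling protein 1 to turn the proton gradient of its many mitochondria into heat. Fat of both kinds lies along the outside of the mouse aorta, and the fat around the mouse thoracic aorta is known to resemble brown fat. Fat cells make fatty acids from sugar through citrate, malonyl-CoA and palmitate, join them to glycerol as triglyceride, and release them again by lipolysis. An aorta segment taken with some of its outer fat yields a mixture of RNA. In such bulk samples, fewer cells of a type and less RNA per cell cannot be told apart.

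Promoters are shown for Acly, which set the classes, and for Acacb and Thrsp, a pair of lipogenic genes that stood well apart between them. Each run covers 250 bases before to 50 after the gene's start in RefSeq on GRCm38.p6, 5′ to 3′ on the gene's strand, and capitals mark a CCAAT box on either strand.
Acly, chr11:100527951-100528250: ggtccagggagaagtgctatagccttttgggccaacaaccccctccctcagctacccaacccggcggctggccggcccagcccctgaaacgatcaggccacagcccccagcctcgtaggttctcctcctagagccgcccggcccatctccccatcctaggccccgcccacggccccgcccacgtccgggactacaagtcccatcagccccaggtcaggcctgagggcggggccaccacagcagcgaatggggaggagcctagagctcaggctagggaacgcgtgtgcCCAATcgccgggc
Acacb, chr5:114165268-114165567: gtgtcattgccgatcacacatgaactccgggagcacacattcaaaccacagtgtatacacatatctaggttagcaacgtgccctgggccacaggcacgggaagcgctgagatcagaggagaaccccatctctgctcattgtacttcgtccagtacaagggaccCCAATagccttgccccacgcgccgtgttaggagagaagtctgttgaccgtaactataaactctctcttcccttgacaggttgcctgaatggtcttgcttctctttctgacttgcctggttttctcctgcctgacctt
Thrsp, chr7:97417501-97417800: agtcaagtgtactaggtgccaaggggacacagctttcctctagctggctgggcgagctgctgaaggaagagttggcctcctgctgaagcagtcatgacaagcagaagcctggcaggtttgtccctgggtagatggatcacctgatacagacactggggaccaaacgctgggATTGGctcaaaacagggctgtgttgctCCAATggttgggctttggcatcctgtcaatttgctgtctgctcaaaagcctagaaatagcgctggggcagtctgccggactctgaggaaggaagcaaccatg
Acly and Thrsp lie on the minus strand and Acacb on the plus strand. The searched motifs were the E-box CACGTG, the sterol response core TCACNCCAC and the CCAAT box CCAAT, on both strands, and none of them overlap in these runs. A CCAAT box was present in 41.1% of all 27025 promoters of this length, an E-box in 8.09% and the sterol core in 1.44%. Over the 14342 promoters of measured genes the shares were 41.7%, 9.94% and 1.44%. Among the 22 promoters found for the 25 genes of the lipogenesis list with Acly, the shares were 68.2%, 27.3% and 4.55%. Of the 5 found for the 6 list members past the threshold, 3 held a CCAAT box and 0 held an E-box or the sterol core. Among the 235 promoters found for the 282 genes past the threshold in the high class, they were 44.7%, 10.2% and 1.28%. A match of letters is a description and not a site.

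The Acly levels ran from 4.73 on infrarenal array 1 to 6.46 on suprarenal array 6 in the high class, with a mean of 5.29 ± 0.63 log2 units (SD, n = 6). They ran from 3.01 on suprarenal array 12 to 4.17 on infrarenal array 11 in the low class, with a mean of 3.75 ± 0.52 (SD, n = 4). The arrays on either side of the set level were infrarenal 1 at 4.73 and infrarenal 11 at 4.17, with infrarenal 6 next below at 4.02 and suprarenal 1 next above at 4.82. Acly had 1 probe among those measured. The classes were not spread evenly over the regions, with 4 of 5 suprarenal but only 2 of 5 infrarenal arrays in the high class, so region was kept as a term in every comparison unless stated.

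Array medians lay between 1.001 and 1.003 in linear units, and any pair of arrays correlated at 0.962 to 0.975 over probes, which are not replicates. RNA input ran from 0.34 to 0.54 µg. The number of arrays limits the precision, with a median 95% half-width of 0.38 log2 units for a class difference. The knocked-out gene, Apoe, was dim on all arrays, with -4.42, -3.90 and -3.12 as lowest, median and highest levels in the high class and -5.09 to -2.57 in the low class. The stretch of the gene under its probe is not stated, so it checks no label. Pool 12 stood apart. The mean level of 13 posterior Hox genes (groups 9 to 13), which mark caudal tissue, was higher in the infrarenal part by 0.17 to 0.88 in pools 1, 6, 8 and 11, and lower by 0.88 there in pool 12, as the labels have it (-0.88, infrarenal minus suprarenal). Both of its arrays are in the low class, so an exchange of its labels would leave the classes as they are. It would move the regional values and, since region is a term of the fit, the class differences too. Whether its labels were exchanged was not tested.

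The label of lipogenic fat was checked on the other genes that mark it. Acaca, the acetyl-CoA carboxylase that makes malonyl-CoA for fatty acid synthesis, read 6.49, 6.97 and 7.80 as lowest, median and highest levels on the 6 Acly-high arrays. On the low arrays it read 6.04 (infrarenal 6), 6.10 (infrarenal 11), 6.18 (infrarenal 12) and 5.08 (suprarenal 12). The classes did not overlap, with suprarenal 12 far below the other low arrays, and the difference of 1.18 ± 0.29 log2 units (SE, n = 6 and 4) did not pass the threshold used for all probes. Slc2a4, the insulin-regulated glucose transporter GLUT4, read 3.62, 3.93 and 4.49 on the high arrays and 2.73, 2.81, 3.15 and 2.74 on the low ones in the same order. Every high array stood above every low one, by 1.04 ± 0.17 (SE, n = 6 and 4), and the other Slc2a4 probe differed by 0.85 ± 0.17. Lpl, the lipase that frees fatty acids from blood lipoproteins, read 5.97, 6.56 and 6.76 on the high arrays and 5.52, 5.56, 5.92 and 5.69 on the low ones. Its difference was 0.72 ± 0.14, and infrarenal 8 at 5.97 stood only just above infrarenal 12 at 5.92.

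General fat cell genes separated the classes in part. Pparg, Cebpa and Adig stood higher on every high array, while Fabp4, Adipoq and Lep overlapped. Fabp4, the fatty acid carrier of fat and endothelial cells, read 8.34 to 8.66 in the high class and 8.14 to 8.52 in the low class, a difference of 0.21 ± 0.11. Adiponectin (Adipoq) read 7.76, 8.18 and 8.59 on the high arrays and 7.38, 7.63, 7.78 and 7.23 on the low ones, with suprarenal 11 of the high class below infrarenal 12 of the low class. Leptin (Lep) was dim and overlapped throughout, from -0.83 to 1.84 in the high class and from 0.16 to 1.05 in the low class. Fabp4 and Adipoq were bright on all 10 arrays, so the classes are called here by Acly and not by their content of fat.

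**Figure D1:**
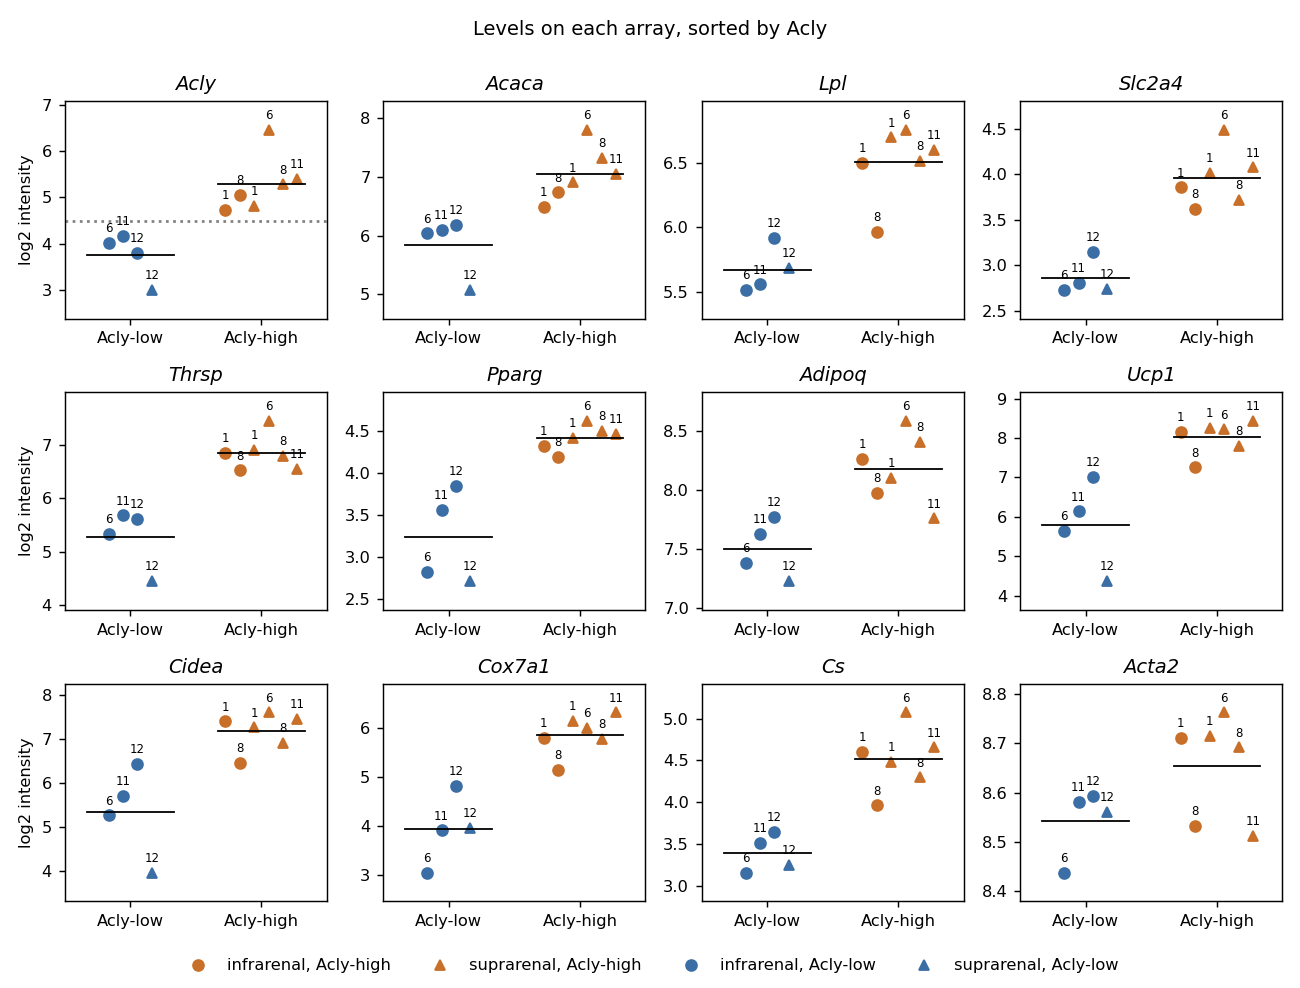
Log2 intensity of 12 genes on each of the 10 arrays, with circles for infrarenal and triangles for suprarenal arrays, colour for the Acly class, pool numbers above the points, bars for class means and a dotted line at the Acly level of 4.5 that set the classes. Slc2a4, Ucp1 and Cs do not overlap between classes, Adipoq does, and Acta2 of smooth muscle lies between 8.44 and 8.76 on all arrays.

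Across the 36060 probes other than Acly, limma with class and region as terms placed 371 probes higher in the Acly-high class at an adjusted p under 0.05 (Benjamini-Hochberg), which is 1.03% of probes, and 9 lower, which is 0.025%. In genes these were 282 of 17990 (1.57%) and 7 (0.0389%). Every high array stood above every low array for 984 genes (5.47%) and below for 194 (1.08%). Since the classes come from these arrays, nothing is read from these shares. The counts hung on the fit: they were 0 and 0 with pool as a fixed block, where only pools 6 and 11 carry a class difference, without the mean-variance trend, and without pool 12 or suprarenal 12. They were also 0 and 0 without any 1 of infrarenal 1, 6 or 11 or suprarenal 1, 8 or 11, without any 1 of pools 1, 6 or 11, and with a score of sympathetic or of liver markers as a further term. They were 702 and 32 without infrarenal 8, and 558 and 29 without pool 8. All 380 probes kept their sign in each of these fits.

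The fatty acid synthesis pathway was high as a group. Of 24 measured members of a lipogenesis list, 18 were higher in the Acly-high class, against 48.2% of all genes, and 14 had every high array above every low one, against 5.47% of all genes. The list median was 0.81 log2 units, against -0.01 for all genes, and 0.53 without pool 12. The 6 members past the threshold were Elovl6, Acacb, Thrsp, Scd1, Tkt and Taldo1. The list was chosen with the sort on Acly in view.

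Acacb, the carboxylase of the mitochondrial surface, read 5.31, 5.75 and 6.13 on the high arrays and 3.72, 4.31, 4.86 and 3.35 on the low ones. The classes were 1.70 ± 0.28 apart (SE, n = 6 and 4), or 3.26-fold. Thrsp, the thyroid hormone responsive Spot 14 protein that lipogenic tissues make in quantity, read 6.52, 6.82 and 7.45 against 5.33, 5.68, 5.61 and 4.45. It differed by 1.68 ± 0.25, with no overlap. Fasn, the synthase that builds palmitate, read 7.31, 7.77 and 8.45 against 6.29, 6.52, 7.0 and 5.11. Its classes did not overlap either, yet the spread among low arrays was wide and its difference of 1.60 ± 0.35 did not pass.

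Elovl6, which lengthens palmitate, differed by 1.98 ± 0.41, or 3.95-fold, and Scd1, which adds the double bond to stearate, by 1.53 ± 0.30. Tkt and Taldo1, the transketolase and transaldolase of the pentose phosphate pathway, differed by 1.07 ± 0.22 and 0.83 ± 0.12. Taldo1 lay within 5.28 to 5.47 on the low arrays and at 5.93 or above on the high ones. Me1, the malic enzyme that makes NADPH for fatty acid synthesis, differed by 1.15 ± 0.29 and did not pass. Among transcription factors of the pathway, Srebf1 differed by 0.32 ± 0.29 and Mlxipl, the sugar-sensing factor ChREBP, by -0.06 ± 0.15, and the classes overlapped for both. Nr1h3, the sterol-sensing receptor LXR alpha, and Mlx, the partner of ChREBP, stood higher on every high array, by 0.68 ± 0.16 and 0.30 ± 0.12, and did not pass. Fads1, a desaturase of polyunsaturated fatty acids, was lower by 0.38 (-0.38 ± 0.09).

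The storage end of the pathway was high with it. Of 15 measured genes of triglyceride synthesis and the lipid droplet, 14 were higher (48.2% of all genes were) and 4 passed (1.57% of all genes did), with a median of 0.71. Agpat2, which adds the acyl chain that makes phosphatidic acid, read 6.47, 6.88 and 7.57 on the high arrays and 5.17, 5.74, 5.83 and 4.43 on the low ones, a gap of 1.71 ± 0.29 with no overlap. Dgat1, which makes triglyceride from diglyceride, differed by 1.04 ± 0.20, and Bscl2, the seipin of droplet formation, by 0.85 ± 0.13. Plin5, a droplet coat protein of oxidative tissues, differed by 1.58 ± 0.31, with infrarenal 12 of the low class at 3.20 level with infrarenal 8 of the high class at 3.19. Plin4, another coat protein, differed by 0.01 ± 0.15.

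Lipolysis genes were mostly higher too. Of 10 measured, 8 were higher and 1 passed, with a median of 0.76, which was 0.51 without suprarenal 12. Aqp7, the channel that lets glycerol out of fat cells, read 2.46, 3.11 and 3.71 on the high arrays and 1.56, 1.88, 2.11 and 1.26 on the low ones, 1.35 ± 0.24 apart. Pnpla2, the first lipase of stored triglyceride, differed by 1.09 ± 0.23 and did not pass. Lipe, the hormone-sensitive lipase, was near the floor of -5.17 on several arrays and overlapped, at -0.89 ± 0.65. Among 13 genes of lipid uptake and insulin action, 9 were higher and 2 passed, Slc2a4 and Lpl, with a median of 0.21 that was 0.09 without pool 12.

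Fat cell regulators and secreted factors gave 15 higher of 18, where 48.2% of all genes were higher, 3 of them past the threshold, and a median of 0.42. Pparg, the master regulator of fat cell formation, was tight in the high class, at 4.19, 4.44 and 4.62, and scattered in the low class, at 2.83, 3.56, 3.85 and 2.72. It differed by 1.22 ± 0.22 with no overlap. Adig, the small fat cell protein adipogenin, differed by 1.60 ± 0.25, and Nrg4, a growth factor that brown fat secretes, by 1.48 ± 0.31. Nnat, neuronatin, ran the other way at -1.38 ± 0.33, with overlapping classes and no pass.

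Among the lists the brown fat list had the largest median difference. Of 25 measured members of a brown fat cell list, 22 were higher, 8 passed and 9 had every high array above every low one, with a median of 1.15, or 0.91 without pool 12 and 0.72 without suprarenal 12. Ucp1, the uncoupling protein, was the widest of all genes that passed, at 2.39 ± 0.43 (SE, n = 6 and 4), or 5.24-fold. It read 7.25, 8.19 and 8.43 on the high arrays and 5.64, 6.14, 7.02 and 4.37 on the low ones. Infrarenal 12 at 7.02 lay close to infrarenal 8 at 7.25, while suprarenal 12 was far below both, so the low class was not uniform. Without pool 12 the difference was 1.82 ± 0.29. For these and all list counts by class, the shares over all genes were 48.2% higher, 1.57% higher past the threshold and 5.47% with every high array above, in the contrast that the sort on Acly defines.

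Cidea, a droplet protein of brown fat, read 6.46, 7.34 and 7.61 on the high arrays and 5.27, 5.72, 6.43 and 3.97 on the low ones, with infrarenal 8 and infrarenal 12 again almost level. Its difference was 2.01 ± 0.41. Cox7a1, the heart and brown fat form of a cytochrome oxidase subunit, read 5.14, 5.90 and 6.31 against 3.06, 3.91, 4.81 and 3.97, a gap of 1.76 ± 0.30. Pank1, Cpt1b, Cox8b, Letmd1 and Kcnk3 also passed, with differences from 1.16 to 1.56. The classes overlapped for Cox8b, with infrarenal 12 of the low class at 7.655 just above infrarenal 8 of the high class at 7.631. Elovl3, the elongase that cold raises in brown fat, spread widely, from 1.12 to 4.37 within the high class, and its 2.46 ± 0.59 did not pass.

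Not all brown fat markers went along. Prdm16, a factor of brown fat fate, differed by -0.33 ± 0.14, and Zic1, a marker of the classical interscapular depot, was near the floor on some arrays at -0.92 ± 0.61. A white fat cell list of 12 genes had 9 higher, none passing and a median of 0.16. Its members such as resistin (Retn, 0.87 ± 0.24) and leptin (Lep, -0.58 ± 0.48) spanned both directions.

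Mitochondrial genes were high as a group. All 20 measured genes of the citric acid cycle and pyruvate dehydrogenase were higher, 11 passed, and the median was 0.81. Of 17 fatty acid oxidation genes 16 were higher and 10 passed, with a median of 0.89, and 44 of 45 respiratory chain genes were higher and 24 passed, with a median of 0.56. The shares passing, 55%, 58.8% and 53.3%, stand against 1.57% of all genes higher past the threshold, in the contrast that the sort on Acly defines. Of the 3 groups, the respiratory chain had the smallest median and the largest number of genes past the threshold.

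Pdhb, a subunit of the pyruvate dehydrogenase that feeds acetyl-CoA into the cycle, read 5.14, 5.45 and 6.09 on the high arrays and 4.14, 4.29, 4.27 and 4.14 on the low ones. It differed by 1.23 ± 0.16, with the high and low arrays well apart, and its other probe differed by 1.31 ± 0.15. Citrate synthase (Cs), which makes the citrate that Acly splits, read 3.96, 4.54 and 5.08 against 3.16, 3.51, 3.64 and 3.24, 1.06 ± 0.20 apart. Its other probe, which was dim, differed by 0.12 ± 0.69 and did not pass. Slc25a20 and Cpt2, the carrier and transferase that bring fatty acids into mitochondria, differed by 1.25 ± 0.26 and 1.07 ± 0.21. Cpt1a, the liver form of the entry enzyme, did not follow them, at -0.23, whereas Cpt1b, the form of muscle and brown fat, was at 1.45.

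Ndufs1, a complex I subunit, read 4.07, 4.53 and 4.68 on the high arrays and 3.37, 3.58, 3.59 and 3.61 on the low ones, 0.84 ± 0.10 apart. Cox5a of complex IV and cytochrome c (Cycs) differed by 1.0 ± 0.12 and 0.99 ± 0.15, while a dim second Cycs probe differed by -0.39 ± 0.42. Infrarenal 8 was the lowest high array for all 3 genes, yet stood above every low array. Breakdown of branched-chain amino acids, another mitochondrial route of fat cells, had all 17 genes higher and 3 past the threshold (Hibch, Pcca and Mccc1), with a median of 0.54. All 12 peroxisome genes were higher, where 48.2% of all genes were, with Pex11a and Pex16 past the threshold and a median of 0.62. Of 16 glycolysis genes 11 were higher, Ldha (0.78 ± 0.11) and Ldhb passed, and the median was 0.28.

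Sterol synthesis, which shares acetyl-CoA with lipogenesis, had 14 of 15 genes higher but 1 past the threshold, Fdft1, the squalene synthase, at 0.86 ± 0.16. Its median of 0.47 was 0.04 without pool 12 and 0.09 without suprarenal 12, so the level of the group rested on pool 12. Genes of protein synthesis differed little: 24 of 26 cytosolic ribosomal protein genes were higher by a median of 0.12, which became -0.02 after quantile normalization.

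**Figure D2:**
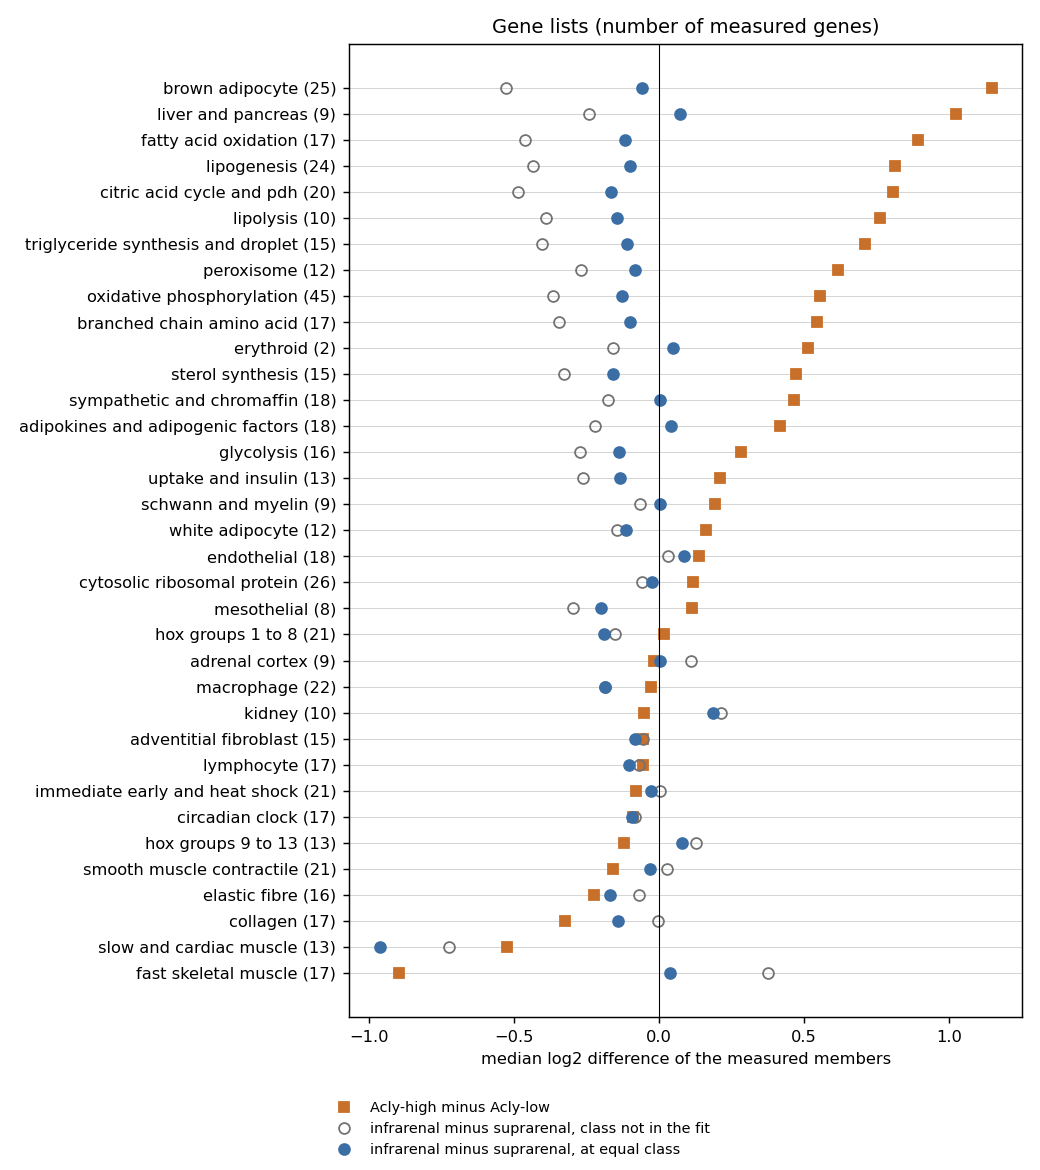
Median log2 difference of the measured members of 35 gene lists, as squares for Acly-high minus Acly-low, open circles for infrarenal minus suprarenal with the class not in the fit, and filled circles for the same with the class in the fit. Brown fat, fatty acid oxidation and lipogenesis medians lie at 0.81 to 1.15 between classes and move from between -0.53 and -0.43 to between -0.12 and -0.06 between regions once the class is a term. That move follows from the class difference and the uneven spread of the classes over the regions.

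Genes outside these lists stood among the largest. Clstn3 (calsyntenin 3), Ttc25, Tspan18 (a tetraspanin), Aspg (an asparaginase), Mtarc1 (an enzyme of the outer mitochondrial membrane) and 2010003K11Rik were 1.94 to 2.19 log2 units higher in the Acly-high class, with no overlap. Among infrarenal arrays alone they were higher by less, from 1.09 (Ttc25) to 1.40 (2010003K11Rik). Suprarenal 12, the only low suprarenal array, was the lowest of all arrays for each of them. The other Ttc25 probe, which was dimmer, differed by 0.66 ± 0.47 and did not pass. Apoc3 and Angptl8, secreted proteins that slow the clearance of blood triglyceride, were higher by 1.75 ± 0.28 and 1.75 ± 0.32. Apoc3 read 1.01, 1.58 and 2.37 on the high arrays and -0.19, 0.21, 0.42 and -0.64 on the low ones, so that the classes were apart at every array.

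In the other direction, 7 genes were lower in the Acly-high class past the threshold. Comp, a matrix protein of cartilage, tendon and vessel wall, read 3.06, 3.26 and 3.55 on the high arrays and 3.73, 3.79, 3.84 and 4.12 on the low ones, with a difference of -0.62 ± 0.12 and no overlap. Its other probe, which was dimmer, differed by -0.27 ± 0.15 and did not pass. Fchsd2, a protein of membrane bending, read 4.95, 5.17 and 5.25 against 5.59, 5.62, 5.44 and 5.71, at -0.51 ± 0.08. Pklr (-0.52 ± 0.10), a pyruvate kinase, and Tmem229b (-0.44 ± 0.09) were of like size. Ubr2 differed by -0.53 ± 0.11 on its brighter probe but by 0.09 ± 0.11 on the other. Neurl1a was the widest at -2.05 ± 0.40, on a dim probe whose classes overlapped, from -4.38 to -1.13 in the high class and from -1.52 to -0.88 in the low class.

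The level of Acly itself, over both classes, was matched most closely by Me1. Their Pearson correlation was 0.993 over the 10 arrays after each region's mean was taken off. Pmvk and Nsdhl of sterol synthesis followed at 0.989 and 0.984, then Slc2a5, the fructose transporter, at 0.984, and Tkt, Aldh1a7, Ttc25 and Acss2 at 0.974 to 0.980. These values describe arrays that share pools, and they take in the gap between the classes. Suprarenal 6, the highest in Acly, was also the highest of all arrays for Me1 at 6.89, Pmvk at 6.54 and Slc2a5 at 1.22. Suprarenal 12, the lowest in Acly, was the lowest for these genes, at 4.20, 5.11 and -4.035. Among genes that ran opposite, Zfp317 stood at -0.935 and the progesterone receptor Pgr at -0.934. Ucp1 was not among the genes closest to Acly. On suprarenal 6 it was 8.22, below the 8.43 of suprarenal 11 and the 8.25 of suprarenal 1. On suprarenal 12 it was the lowest of all arrays at 4.37, as Acly was at 3.01.

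No gene of the contractile, elastic fibre or collagen lists passed, and most members of each were lower in the Acly-high class. Of 21 contractile smooth muscle genes 5 were higher and 16 lower, where 48.2% of all genes were higher, with a median of -0.16. Acta2, the smooth muscle actin, differed by 0.09 ± 0.08 and Myh11, the smooth muscle myosin, by -0.05 ± 0.09. Elastic fibre genes (16) were all lower, with a median of -0.22 that was 0.01 with pool as a fixed block, and 15 of 17 collagen genes were lower, with a median of -0.33 that was 0.11 with that block. None of either list passed. Col1a1 (-0.73 ± 0.19) had the largest difference among the collagens, with overlapping classes. Endothelial genes (18) had a median of 0.14, which was -0.09 with the block, and macrophage genes (22) a median of -0.03, with none passing in either list. Lymphocyte and adventitial fibroblast genes had medians of -0.06 and -0.06.

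Markers of neighbouring tissues moved with the class in part. All 17 fast skeletal muscle genes were lower in the Acly-high class, with a median of -0.90 and none passing, and the mean level of the list ran from 1.06 to 4.71 on high arrays and from 2.29 to 4.77 on low ones. Its median was 0.09 without suprarenal 12 and -3.94 with pool as a fixed block. Sympathetic and chromaffin genes had 16 of 18 higher and a median of 0.47, with list means of 0.67 to 3.04 on high and 0.56 to 2.14 on low arrays. Of 9 liver and pancreas genes 7 were higher, with a median of 1.03. Albumin (Alb) was dim and ran from -2.51 to 2.05 on high arrays and from -2.97 to -1.36 on low ones. Their part in the class differences was not tested beyond the fits with these scores as a term. With the muscle score in the fit 214 probes were higher and 4 lower, and with the sympathetic or the liver score 0 and 0 passed.

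Kidney and adrenal cortex genes had medians of -0.05 and -0.02, and the classes overlapped for each of their members. The clock gene Arntl, whose level turns with the hour of the day, differed widely between pools, from -0.45 to 3.48 in the high class and from -0.07 to 3.34 in the low class. It did not separate the classes, at 0.33 ± 0.90.

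Region was compared among arrays of equal class, and here the groups come from the labels. No probe passed in either direction at an adjusted p under 0.05 by limma (0%), with 1926 of 36060 at an unadjusted p under 0.05, where 1803 would fall by chance, and a smallest adjusted p of 0.891. Without the class in the fit 2758 probes reached an unadjusted p under 0.05. Leaving out pool 12 gave 0 probes as well, with 2138 at that level. A test of whether the class difference of a probe was larger in size than its region difference called 0 probes, with 744 at an unadjusted p under 0.05. All 380 probes past the threshold had the larger difference by class, but they were picked by that difference. Over all genes, 10551 of 17990 had it too. For no single probe could that order be told from the spread between arrays.

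The fat and mitochondrial lists were lower in infrarenal aorta when the class was left out, and had smaller medians with it. The sign stayed the same except for fat cell regulators and secreted factors, which went from -0.22 to 0.04. Since more suprarenal than infrarenal arrays were Acly-high, adding the class raises the region value of any gene higher in that class. These shifts thus follow from the sort on Acly, and nothing about region is read from them. The lipogenesis median between regions was -0.43 without the class and -0.10 with it, and the brown fat median went from -0.53 to -0.06. Fatty acid oxidation went from -0.46 to -0.12, the citric acid cycle from -0.49 to -0.17 and the respiratory chain from -0.37 to -0.13. Over all genes the median was -0.05 in both fits. At equal class, 17 of 17 fatty acid oxidation genes, 20 of 20 of the citric acid cycle, 44 of 45 of the respiratory chain, 19 of 24 of lipogenesis and 15 of 25 brown fat genes were lower in infrarenal aorta, against 62.2% of all genes. None of them passed. Of the 289 genes past the class threshold, 237 had a region difference at equal class within 0.2 log2 units. The same share over all genes was not taken, so nothing is read from this count. Ucp1 differed between regions by 0.39 ± 0.42, Slc2a4 by -0.16 ± 0.16 and Pparg by 0.09 ± 0.22 at equal class, with adjusted p from 0.92 to 0.967 by limma. Without the class Ucp1 was at -0.57 and Pparg at -0.395, so both changed sign by that same shift. Lpl (-0.27 ± 0.13) and Cox7a1 (-0.39 ± 0.30) kept the sign they had without the class, and neither passed.

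**Figure D3:**
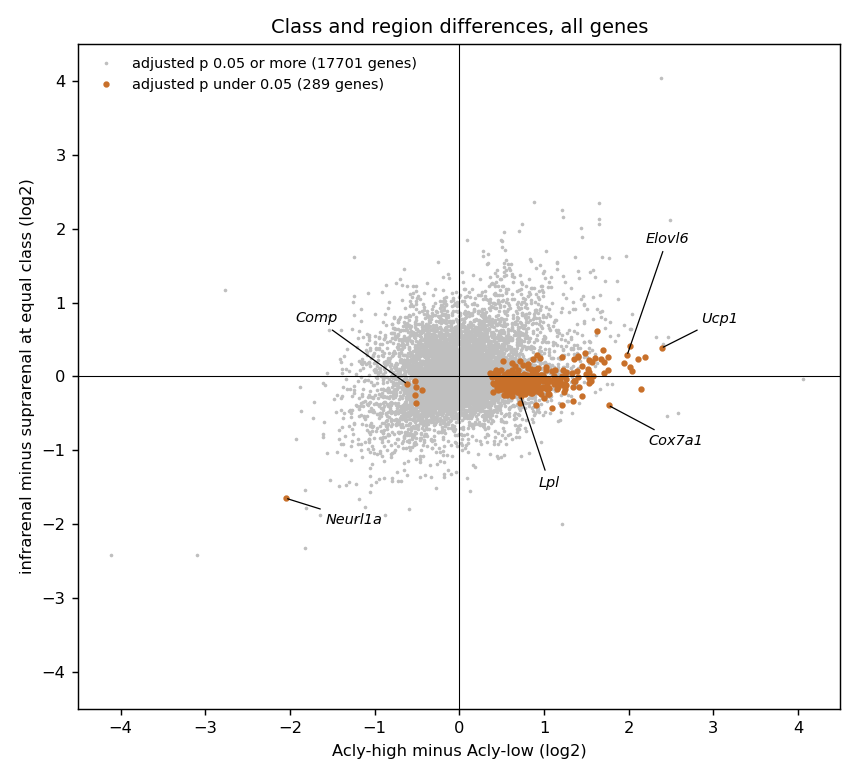
Difference between regions at equal class (infrarenal minus suprarenal, log2) against the difference between classes (Acly-high minus Acly-low, log2) for 17990 genes, with the 289 genes at an adjusted class p under 0.05 in colour. The coloured genes lie near the horizontal axis, 282 of them on the right up to Ucp1 at 2.39, and Neurl1a lies low on both scales at -2.05 and -1.65.

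The pools show the same values without a model. In pools 6 and 11, where the suprarenal part was Acly-high and the infrarenal part Acly-low, the mean of the lipogenesis list was lower in the infrarenal part by 1.36 and 0.64 (-1.36 and -0.64). In pools 1 and 8, with both parts high, the differences were -0.10 and -0.31, and in pool 12, with both low, 0.53. The brown fat list gave -1.51 and -1.32 in pools 6 and 11, 0.02 and -0.51 in pools 1 and 8, and 0.92 in pool 12. The respiratory chain gave -1.04 and -0.55, then -0.06 and -0.34, then 0.12. So the largest regional gaps lay in the pools whose parts fell into different classes, which is what the sort on Acly selects, and in the other pools the gaps had both signs.

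**Figure D4:**
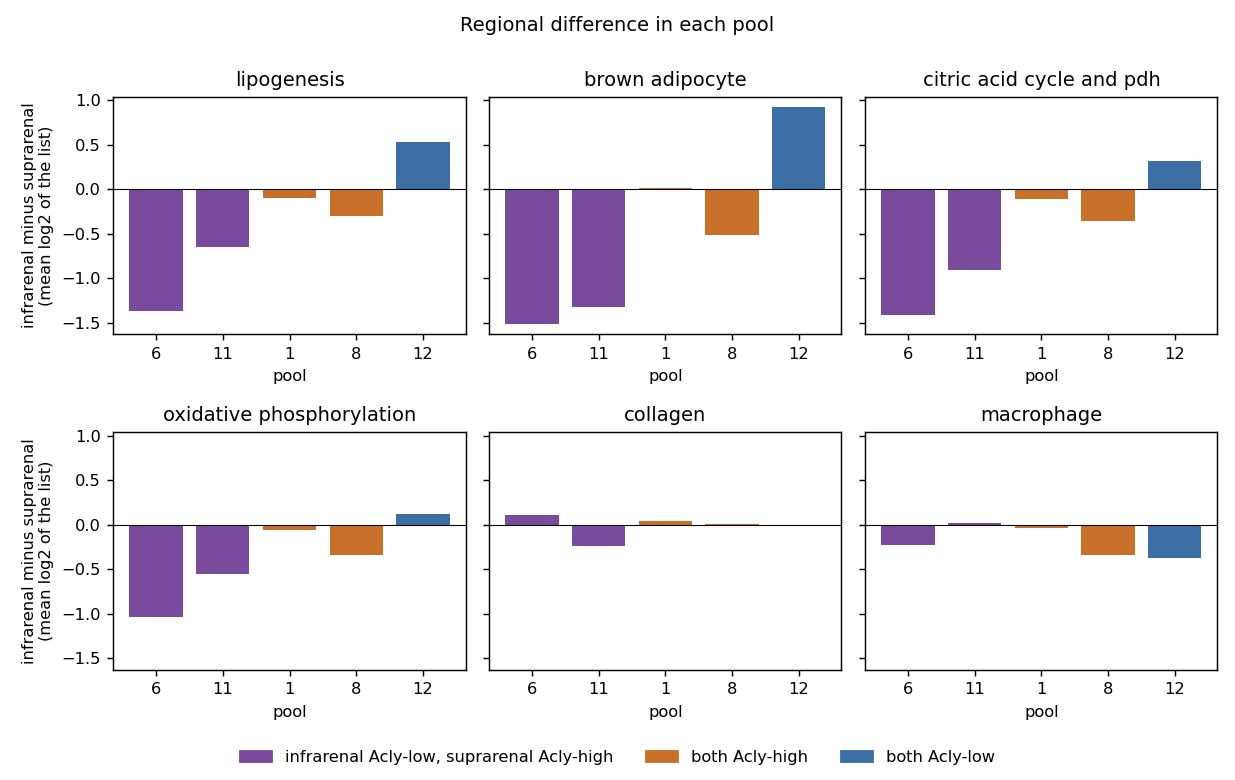
Infrarenal minus suprarenal difference of the mean log2 level of 6 gene lists in each pool, with bars coloured by the Acly classes of the pool's parts. Lipogenesis, brown fat, citric acid cycle and respiratory chain bars are lowest in pools 6 and 11, from -1.51 to -0.55, and above 0 in pool 12, while collagen and macrophage bars stay within -0.38 and 0.11.

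Among the genes of smallest region p, Max, the partner of the Myc factors, was lower in infrarenal aorta by 0.59 (-0.59 ± 0.10) with a class difference of -0.22 ± 0.11, and Rab5a, of early endosomes, by 0.38 (-0.38 ± 0.09) with a class difference of 0.05 ± 0.09. Cxcl10, a chemokine that interferon induces, was higher in infrarenal aorta by 0.70 ± 0.16, with a class difference of 0.57 ± 0.16. None passed, all at an adjusted p of 0.891 by limma. Macrophage genes were lower in infrarenal aorta for 20 of 22 members without the class, where 60.4% of all genes were lower, and for 21 of 22 at equal class, where 62.2% were. The list median was -0.19 in both fits. By pool, the list mean differed by -0.04, -0.23, -0.34, 0.02 and -0.38 (infrarenal minus suprarenal) in pools 1, 6, 8, 11 and 12. An exchange of the labels of pool 12 would turn the sign of its value. C1qc, a complement subunit of macrophages, read 5.33, 5.13, 5.48, 5.47 and 5.43 in infrarenal parts 1, 6, 8, 11 and 12 and 5.63, 5.82, 6.0, 5.60 and 5.90 in the suprarenal parts. The regions did not overlap, by -0.42 ± 0.11 at equal class (adjusted p = 0.891 by limma), and its class difference was -0.02 ± 0.11. They would overlap for C1qc if the labels of pool 12 were exchanged, which was not tested.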

How the data were processed

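The authors deposited linear intensity values for 36227 probes on 10 single-colour arrays, already scaled per array. How they were scanned, background-corrected and scaled was not given in the sources used here. Per the labels' protocols, total RNA was amplified into biotin-labelled cRNA and stained with Cy5-streptavidin. Of the deposited intensities 1968 were missing and 1755 were at or below 0. Those under 0.0278, percentile 1 of positive values, were raised to it (5328 values) and log2 was taken, which compresses differences of dim probes. Probes needed 3 values per region, which dropped 166.

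Arrays were sorted at an Acly level of 4.5, and limma 3.58.1 in R 4.3.3 (lmFit, eBayes with a mean-variance trend) was fitted with class and region on all probes but Acly. P-values are two-sided, adjusted by Benjamini-Hochberg at 0.05. A second test asked whether the class difference exceeded the region difference in size, from the contrasts class minus region and class plus region. The members and lists were chosen with earlier results of these data known. The 35 lists had 663 entries, 579 of them measured. Symbols came from the platform annotation, updated with RefSeq of GRCm38.p6 by Entrez identifier for 21487 of 21615 probes with a single symbol, while 681 probes had several symbols and 13931 none. The probe of highest mean stood for a gene.

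Named genes are the 12 widest class differences each way among genes past the threshold with classes apart (filled up to 6 by smallest p), the fat list members, up to 4 members of other lists, the 6 of smallest region p on each side, and those most like Acly. Others, such as Cpt1a, Ndufs1 and C1qc, were chosen after their values were seen. Both parts of a pool came from the same animals. Deviations of paired arrays from their region's mean, over all probes, correlated at 0.045, 0.006, -0.033, -0.052 and -0.092 in pools 1, 6, 8, 11 and 12. They keep the class split of pools 6 and 11 and weigh all probes alike, so they cannot show that pairing is negligible. The main fit treats arrays of the same pool as independent. Since a fixed block leaves only pools 6 and 11 to carry the class difference, pool as a block is an alternative. Others were quantile normalization, an offset of 0.2701 (percentile 25) for the floor, omission of the dimmest 30% of probes, no region term, Acly as a continuous term, no trend, array weights, RNA input, marker scores, infrarenal arrays alone, and each array and pool left out. The liver score and the joint omission of pools 6 and 12 were chosen after seeing the data. The fit was tested on simulated data.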

Additional observations from a re-analysis of the deposited data

Results flagged for a closer look

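Each class of arrays was searched for 1 array far from the others, in 114 sets of values, and 7 stood out where about 6 would by chance. In the Acly-high class, suprarenal 6 was highest for the mean of the lipogenesis list, at 5.42 where the others lay between 4.52 and 4.83, and for the white fat cell list, at 4.17 against 3.50 to 3.75. Infrarenal 8 was lowest for the respiratory chain list, at 6.0 where the others lay between 6.34 and 6.53. It was also lowest for Lpl, at 5.97 below a range of 6.5 to 6.75. Suprarenal 8 was highest for the lymphocyte list, at 1.23 against 0.62 to 0.80. In the Acly-low class, suprarenal 12 was lowest for Acaca, at 5.08 against 6.04 to 6.18, and for Ttc25, at -1.20 against 0.26 to 0.41.

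The class difference itself differed between the regions for 2 probes (interaction term in limma, adjusted p under 0.05), with 1682 at an unadjusted p under 0.05. Cxadr, the coxsackievirus and adenovirus receptor of cell junctions, had a class difference 4.39 log2 units smaller in infrarenal than in suprarenal aorta (-4.39, adjusted p = 0.0439). An unnamed probe had one 2.96 larger (adjusted p = 0.0159). Suprarenal 12 is the only low suprarenal array and set both, at -4.72 for Cxadr where the other arrays lay between -1.37 and 1.64, and at 3.29 for the unnamed probe where they lay between -0.13 and 0.42.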

How the results depend on the processing

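The count of probes past the threshold, 371 higher and 9 lower, was the value that moved most. It was 239 and 27 after quantile normalization, 997 and 51 with no region term, 614 and 41 with array weights, 214 and 4 with the fast muscle score, and 25 lower without the dimmest 30% of probes. It was 0 and 0 with pool as a fixed replicate block, with no variance trend, with the sympathetic or liver score and on infrarenal arrays alone, and 0 and 3 without pools 6 and 12 together. Leaving out 1 array or pool gave 0 to 702 higher and 0 to 32 lower. The cause was not tested. With pool as a random block (consensus correlation -0.004) it was again 371 and 9. The size test called 2 probes with Acly as a continuous term and 2 without pools 6 and 12. Region at equal class called 0 probes in all 28 alternatives with that term. No gene of 39 followed reversed its class direction, and 716 of 1208 values no longer passed.

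List medians by class under the fixed block were 1.01 for triglyceride synthesis, 0.41 for uptake and insulin, 0.74 for adipokines, 1.66 for brown fat and 1.21 for fatty acid oxidation, with reversed signs for elastic fibre (0.008), collagen (0.11) and endothelial genes (-0.087). On infrarenal arrays alone, and so without suprarenal 12, brown fat was 0.72 and fatty acid oxidation 0.63. Without pools 6 and 12 lipolysis was 0.43, uptake and insulin 0.02, fatty acid oxidation 0.55 and the respiratory chain 0.39. Over fits without 1 array or pool, the brown fat median ran from 0.72 to 1.30 and fatty acid oxidation from 0.63 to 1.12. Dim probes near the floor limit Lipe, Zic1, Neurl1a and Apoe.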

Other observations

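Clock, stress response and Hox genes differed little by class. Of 17 circadian clock genes 6 were higher in the Acly-high class, with a median of -0.09, and Npas2 had the largest difference, at 1.09. Immediate early and heat shock genes, which respond to handling of tissue, were near even, with 8 of 21 higher and a median of -0.08. Anterior Hox genes (groups 1 to 8) had a median of 0.02 by class and of -0.19 by region at equal class, and posterior ones (groups 9 to 13) of -0.12 and 0.08. Slow and cardiac muscle genes were the widest by region, with a median of -0.96 at equal class, 12 of 13 lower in infrarenal aorta and none past the threshold. By pool, the list mean differed by 0.61, -0.48, -1.82, 0.04 and -1.95 (infrarenal minus suprarenal) in pools 1, 6, 8, 11 and 12. Pools 8 and 12 thus carried most of it, with suprarenal 12 at 2.08 and suprarenal 8 at 1.36 the highest arrays. Myl2, the ventricular myosin light chain, differed by -2.32 ± 1.39 between regions, with suprarenal 12 at 3.31. Msln of mesothelium, the outer lining of the abdomen, differed by -1.08 ± 0.59 between regions and 0.44 ± 0.60 between classes.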
